A study of Homo sapiens with 11 samples.

Results

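The 5 arrays described here were made from NT2D1 cells before induction, and they were chosen as all arrays of the series without doxycycline. They are 2 of lines that carry an shRNA called shRNA5 in the file headers (lines 5_23 and 5_28) and 3 of lines with an shRNA called shRNA1 (lines 1_1, 1_3 and 1_6), out of 11 arrays in the series. NT2D1 is a human embryonal carcinoma line, and every line in the series stably carried the repressor TetR3 and a short hairpin RNA (shRNA) against L1TD1, so no line without a hairpin was analysed here. RNA was taken on day 6, counted from the addition of doxycycline to the induced arrays, of which there are 3 with shRNA5 (5_34, 5_39 and 5_40) and 3 with shRNA1 (1_10, 1_12 and 1_15). According to the design text the arrays come from 6 clones, each sampled with and without doxycycline, and 1 sample that fell outside its group's cluster was removed. Replicate number 6 has an induced shRNA5 array (5_40) and no non-induced one. By these numbers the removed sample was one of the non-induced shRNA5 set. A difference between the 2 sets therefore cannot be told apart into the hairpin, the clones that carry it, and the choice of samples. Of 48803 probes, 14840 passed the filter of a detection p under 0.01 (a signal above nearly all negative controls) on at least 2 of the 5 arrays. They cover 10117 genes, each represented by its brightest probe with 1 gene symbol.

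Embryonal carcinoma cells are the malignant stem cells of germ cell tumours and share much of their programme with embryonic stem cells. POU5F1, SOX2 and NANOG hold that programme in place, and the RNA-binding protein LIN28A blocks maturation of the let-7 microRNAs that promote differentiation. L1TD1, derived from a LINE-1 retrotransposon, is an RNA-binding protein found in the same undifferentiated cells. In a doxycycline-controlled system the repressor holds the hairpin promoter silent until the drug is added, and these arrays were taken without the drug.

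Between 14095 and 14153 probes were above background in the shRNA5 lines and between 13312 and 15004 in the shRNA1 lines, and the mean raw signal was 406 to 418 against 395 to 461. The number of arrays, 2 against 3, limits the precision of every value, and p-values measure the spread between clones of 1 cell line, as left after that removal. Levels are log2 normalized signals, differences are shRNA5 minus shRNA1 on the log2 scale with the standard error (SE) of limma, and the threshold is an adjusted p of 0.05 over all 14840 probes unless another is named. In bulk RNA, fewer cells that express a gene and less of its RNA per cell cannot be told apart.

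The labelled cell type was borne out by its markers. Of 12 embryonal carcinoma markers 11 were measured, and all 11 were above background on all 5 arrays (L1TD1, POU5F1, SOX2, NANOG, LIN28A, DNMT3B, SALL4, DPPA4, PODXL, ALPL and CD24); the probe for CRIPTO was not kept. Their summed linear signal was 51852 to 55505 in the shRNA5 lines and 57231 to 62163 in the shRNA1 lines. LIN28A, CD24 and PODXL, at mean levels of 13.65, 13.48 and 13.42, gave most of that signal. The sum therefore says little about the weaker markers, and the sets overlap for POU5F1 and L1TD1. None of 4 endoderm markers (SOX17, FOXA2, GATA6, AFP) and none of 5 trophoblast markers was kept, and of 5 mesoderm markers only HAND1 was. These sets are short, and longer lists of the same lineages did have measured members. They were 9 of 20 listed endoderm genes, 8 of 18 trophoblast genes and 6 of 20 mesoderm genes. Among 8 fibroblast markers 6 were measured, with a summed signal of 3417 to 3545 in the shRNA5 lines and 3149 to 4952 in the shRNA1 lines, while DCN and FAP were not kept. Here 4952 is line 1_6 and the highest shRNA1 sum without it 3513. Neural markers were at 363 to 383 in the shRNA5 lines and 405 to 716 in the shRNA1 lines, where 716 is line 1_6 and the highest without it 428, with DCX, GAP43 and STMN2 measured and PAX6 and SOX1 not kept. Blood and endothelial markers summed to 570 to 1013 in the shRNA5 lines and 294 to 567 in the shRNA1 lines, where VWF gave most of the signal and PTPRC, CD34, CDH5, HBB and LYZ were not kept.

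The brightest probes of the ground state belonged to protein synthesis and the cytoskeleton. Cytosolic ribosomal proteins made up 12 of the brightest 25 genes (48.0%), 33 of the brightest 100 and 42 of the brightest 200. Beside them in the top 25 stood the elongation factor EEF1A1, TPT1, a translationally controlled tumour protein, the actin ACTG1, the actin-sequestering TMSB4X, the tubulin TUBA1C, the iron store FTL, the glycolytic enzyme GAPDH, OAZ1, which restrains polyamine synthesis, the ATP synthase subunit ATP5F1B and the histone H3-3A. Mean levels in this group ran from 14.67 to 15.19, near the upper end of the array's range, where differences are compressed. A probe's brightness also depends on its own sequence, so these are the brightest probes and not an order of transcript abundance.

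No gene among the brightest 25 separated the sets at an unadjusted p under 0.05, and none varied by more than 0.52 over the 5 lines. RPS25, a small-subunit ribosomal protein, had levels of 15.10 and 15.22 in the shRNA5 lines and 15.10, 15.04 and 15.19 in the shRNA1 lines. FTL stood at 15.03 in both shRNA5 lines and 15.01, 15.15 and 15.11 in the shRNA1 lines. For both genes the sets overlap. The widest spread was that of TUBA1C, at 14.79 and 14.70 in the shRNA5 lines and 14.61, 14.65 and 15.13 in the shRNA1 lines, where line 1_6 alone was high. Of the 25 brightest genes of each set 22 were shared, and of the 200 brightest 185 were. By comparison, the median range over the 5 lines for all 10117 genes was 0.63, and 17.2% of genes had a range over 1.

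3 names in the top 25 are those of a leukocyte gene or of pseudogenes. LAIR1, an inhibitory receptor of leukocytes, was at 14.91 and 14.94 in the shRNA5 lines and 14.93, 14.80 and 14.64 in the shRNA1 lines. SLC7A5P2 and H3P6 are listed as pseudogenes, and the other SLC7A5P2 probe was above background on 0 of 2 shRNA5 and 2 of 3 shRNA1 arrays. Probe names come from the platform annotation, which can be old, and what these probes bind was not tested.

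L1TD1 itself overlapped between the sets. Its probe had levels of 8.82 and 8.91 in the shRNA5 lines and 8.55, 8.57 and 8.86 in the shRNA1 lines. Both shRNA5 values lay around the highest shRNA1 value, that of line 1_6. The difference was 0.21 ± 0.19 (SE), which puts the shRNA5 lines at 115% of the shRNA1 lines (adjusted p = 0.675 in limma; exact two-sided permutation p = 0.3, where 0.1 is the smallest that 2 against 3 arrays allow). After induction all 6 arrays were lower than all 5 of these, at 8.09, 8.33 and 7.57 in the shRNA5 arrays and 8.04, 7.65 and 7.34 in the shRNA1 arrays.

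The core pluripotency factors were bright in all 5 lines and none passed the threshold between the sets. POU5F1 stood at 11.83 and 11.70 in the shRNA5 lines and 11.33, 11.22 and 11.84 in the shRNA1 lines, with an overlap through line 1_6. SOX2 was at 10.72 and 10.74 in the shRNA5 lines and 11.33, 11.03 and 11.14 in the shRNA1 lines, without overlap (-0.44 ± 0.19, SE, adjusted p = 0.341), and its other probe also differed by -0.44. NANOG was at 10.08 and 9.93 in the shRNA5 lines and 10.17, 10.46 and 10.16 in the shRNA1 lines, also without overlap and closer together (-0.26 ± 0.19, SE, adjusted p = 0.587). Levels of LIN28A lay between 13.47 and 13.87, and those of DNMT3B, a de novo DNA methyltransferase, between 10.96 and 11.89, highest in line 1_6. The 35 measured of 47 listed pluripotency and embryonal carcinoma genes divided into 18 higher and 17 lower, with a median difference of 0.01 and 0 past the threshold, and at an unadjusted p under 0.05 there were 0 higher and 2 lower, SOX2 and the deubiquitinase USP44 (-0.49 ± 0.21, SE), where all genes had 6.23% higher and 7.3% lower. Without line 1_6 the same count was 3 higher and 1 lower, with a median of 0.03. Of all 10117 genes 852 were then higher and 895 lower at that p. All genes had a median difference of -0.01.

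As whole profiles the 2 shRNA5 lines were the closest pair, and the shRNA1 lines were spread more widely. By the replicate numbers, the sample removed for lying outside its cluster came from the shRNA5 set. The closeness of this pair therefore depends on that removal and cannot be read as a smaller spread of shRNA5 clones. Lines 5_23 and 5_28 correlated at r = 0.988 over the 14840 probes, against 0.968 to 0.985 among the shRNA1 lines and 0.962 to 0.981 across the sets. Probes 2-fold or more apart numbered 122 between the shRNA5 lines, 171 between lines 1_1 and 1_3, 442 and 810 between line 1_6 and each of these, and 312 to 1079 across the sets. Line 1_6 stood apart from the other 4 on the first principal component, which held 48.1% of the variance. The lines 1_1 and 1_3 were together at one end of the second component, which held 27.0%. The mean distance (1 minus r) was 0.0271 between lines of different sets and 0.0207 between lines of the same set. That excess of 0.00637 had an exact two-sided permutation p of 0.3, and 0.1 is the smallest possible with 10 splits. Without line 1_6, left out after the data were seen, it was 0.00903.

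**Figure D1:**
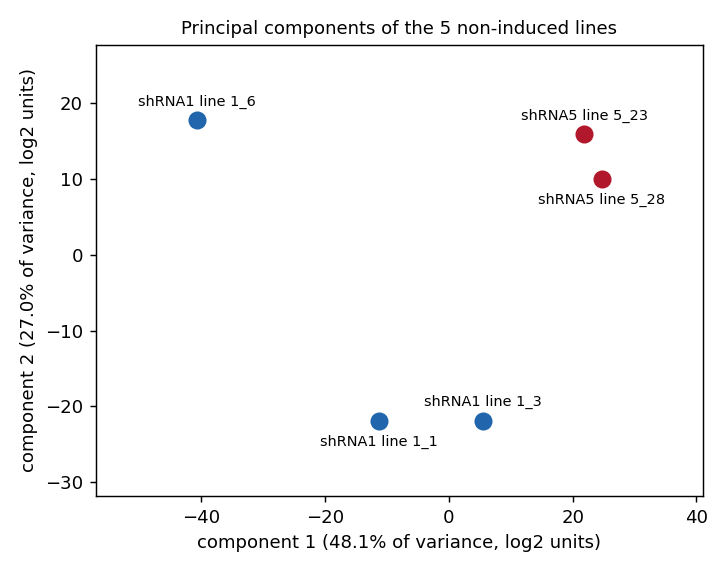
First and second principal components of the 14840 kept probes for the shRNA5 lines (red) and the shRNA1 lines (blue), 1 point a line, in log2 units. Both shRNA5 lines lie together at 21.8 and 24.7 on the first component, and line 1_6 lies at -40.7.

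3 genes rose in the shRNA5 lines. All 3 were below background on every shRNA1 array and passed the detection filter, which asks for 2 of the 5 arrays, only through the shRNA5 lines where they are high. DNAJA4 is a co-chaperone of the HSP40 family that assists HSP70 and is induced by heat. NLRP7 belongs to the maternal and early embryonic NLRP proteins, and its mutations are a cause of recurrent hydatidiform mole. MB is myoglobin, the oxygen-binding haem protein of muscle. These 3 probes are 0.0202% of the 14840 tested, and with all 48803 probes tested, without that filter, 0 passed (smallest adjusted p = 0.175, 4305 at an unadjusted p under 0.05). For a gene below background on every array of a set, the fold is a lower bound, taken against the lowest level counted as detected.

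DNAJA4 had levels of 7.17 and 7.78 in the shRNA5 lines and 4.73, 4.96 and 4.44 in the shRNA1 lines. It was at least 3.40-fold higher, with a fitted difference of 2.76 ± 0.25 (SE, adjusted p = 0.0185). NLRP7 was at 7.77 and 7.26 in the shRNA5 lines and 5.08, 5.33 and 5.21 in the shRNA1 lines. Every shRNA5 line lay far above every shRNA1 line for both genes. NLRP7 was at least 3.50-fold higher (2.31 ± 0.22, SE, adjusted p = 0.0185), and its other 2 kept probes differed by 1.37 and 1.40, without overlap of the sets and with adjusted p of 0.17 and 0.11. MB had levels of 7.60 and 7.14 in the shRNA5 lines and 4.95, 5.46 and 5.07 in the shRNA1 lines, at least 3.17-fold higher (2.21 ± 0.23, SE, adjusted p = 0.0333), and its other kept probe differed by 1.06 (adjusted p = 0.11). The plot of levels by line shows these genes beside L1TD1 and the core factors.

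**Figure D2:**
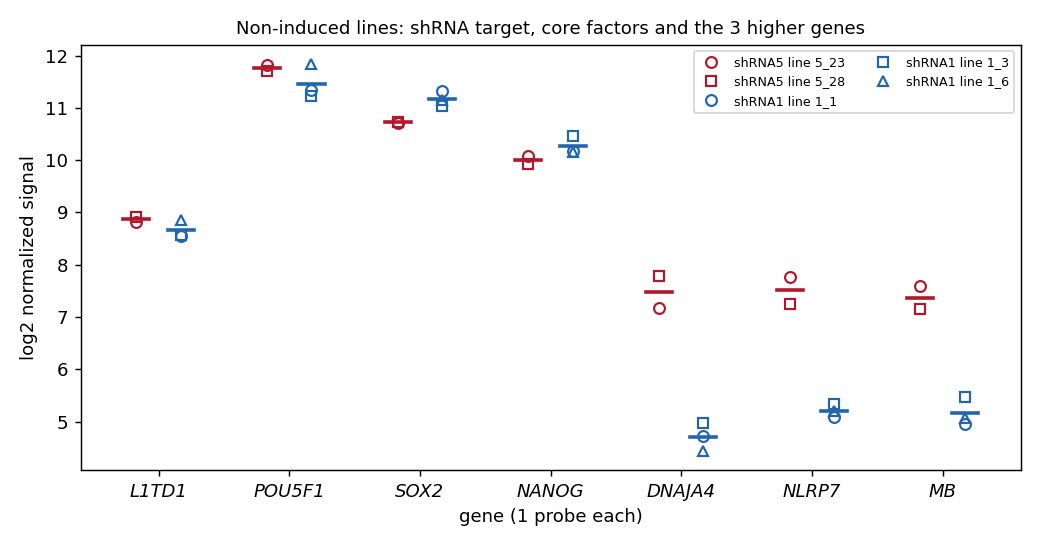
Log2 normalized signal of 7 genes in each non-induced line, shRNA5 in red and shRNA1 in blue, with the mean of each set as a bar. DNAJA4, NLRP7 and MB lie between 7.14 and 7.78 in the shRNA5 lines and between 4.44 and 5.46 in the shRNA1 lines, while L1TD1 overlaps.

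1 probe fell, ILMN_1831106, which has no gene name in the annotation used here. This probe too passed the detection filter only through the set where it is high, here the shRNA1 lines. It was at 5.03 and 5.27 in the shRNA5 lines, below background on both, and at 7.32, 6.94 and 6.85 in the shRNA1 lines, at least 2.49-fold lower (-1.89 ± 0.21, SE, adjusted p = 0.0415; 0.00674% of probes). All 4 calls rest on few arrays. When line 1_1, 1_6, 5_23 or 5_28 was omitted, limma called 0 probes in either direction (991 to 2684 had an unadjusted p under 0.05), and omitting line 1_3 gave 15 higher and 6 lower. A fit over all 11 arrays with the replicate number as a random block gave 6 higher and 2 lower, with the 4 called probes among them. With line 1_6 left out the difference was 2.63 for DNAJA4, 2.31 for NLRP7, 2.16 for MB and -1.98 for ILMN_1831106, at adjusted p of 0.0747, 0.0747, 0.107 and 0.0747. With all arrays, 2104 probes had an unadjusted p under 0.05, and of the 10117 genes 6.23% were higher and 7.3% lower at that level.

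The promoters of the 3 genes called higher are printed with each CG dinucleotide, the site of DNA methylation, in capitals. Their shared direction follows from that choice. Each window runs from 250 bases before to 50 after the gene's start (RefSeq, GRCh38.p14), 5′ to 3′ on the gene's strand.
DNAJA4 (chr15:78263895-78264194, plus strand): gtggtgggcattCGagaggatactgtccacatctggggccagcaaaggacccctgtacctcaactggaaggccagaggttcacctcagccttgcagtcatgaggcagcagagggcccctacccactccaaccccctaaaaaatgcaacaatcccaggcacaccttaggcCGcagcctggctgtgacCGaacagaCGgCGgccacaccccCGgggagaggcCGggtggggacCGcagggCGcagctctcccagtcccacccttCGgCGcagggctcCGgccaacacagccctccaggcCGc
NLRP7 (chr19:54947481-54947780, minus strand): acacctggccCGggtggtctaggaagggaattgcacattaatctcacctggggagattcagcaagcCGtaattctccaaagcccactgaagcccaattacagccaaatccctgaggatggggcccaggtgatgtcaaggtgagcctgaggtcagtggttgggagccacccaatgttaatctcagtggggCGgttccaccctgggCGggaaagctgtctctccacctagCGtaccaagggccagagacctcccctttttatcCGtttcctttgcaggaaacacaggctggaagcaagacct
MB (chr22:35623305-35623604, minus strand): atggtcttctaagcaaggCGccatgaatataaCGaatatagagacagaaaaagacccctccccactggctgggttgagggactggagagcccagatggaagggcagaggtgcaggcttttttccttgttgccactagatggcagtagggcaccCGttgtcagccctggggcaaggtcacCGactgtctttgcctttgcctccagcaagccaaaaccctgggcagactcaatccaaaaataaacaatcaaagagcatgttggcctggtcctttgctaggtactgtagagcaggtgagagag
They held 13, 6 and 4 CG dinucleotides. The median over the 8297 kept genes with such a window was 26, and 14.0%, 5.94% and 3.50% of those genes had fewer CG than DNAJA4, NLRP7 and MB. Methylation was not measured, and the counts describe only these windows.

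DNAJA4, NLRP7 and MB were among 157 genes at least 2-fold apart with every line of one set on one side of every line of the other, 88 higher (0.87% of genes) and 69 lower (0.682%). Here and below, 2-fold counts use fitted differences, also where a set was below background and the lower bound was smaller. A gene below background on every array of 1 set passed the detection filter only through the set where it is high. Its adjusted p depends on that filter, and such genes are among the 157. Among the largest differences upward that did not pass the threshold, TXNIP, an inhibitor of thioredoxin that answers to glucose, was at 10.34 and 9.67 in the shRNA5 lines and 8.46, 8.17 and 7.21 in the shRNA1 lines (2.06 ± 0.37, SE, adjusted p = 0.105). The imprinted long non-coding RNA MEG3 was at 8.49 and 8.95 in the shRNA5 lines and 7.15, 7.76 and 5.71 in the shRNA1 lines (1.85 ± 0.50, SE, adjusted p = 0.179), and its other kept probe differed by 1.00. Both are lowest in line 1_6. ITGAX, an integrin alpha chain of myeloid cells, PADI3, a peptidylarginine deiminase of epithelia, and SYNE4, which links nuclei to microtubules in epithelial cells, were below background on all 3 shRNA1 arrays and at least 2.46, 2.52 and 2.41-fold higher, with adjusted p of 0.0853, 0.105 and 0.105.

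Among the 10 genes with the largest differences downward without overlap, 6 encode transcription factors; none of the 10 passed the threshold. NR2F1 (COUP-TF1), a nuclear receptor of the developing nervous system, was at 5.69 and 5.43 in the shRNA5 lines and 7.91, 6.99 and 7.47 in the shRNA1 lines. HES5, a Notch target that holds back neuronal differentiation, was at 5.21 and 4.84 in the shRNA5 lines and 7.46, 6.54 and 6.33 in the shRNA1 lines. Both were below background in both shRNA5 lines, at least 3.33-fold and 2.08-fold lower, with adjusted p of 0.0936 and 0.110. TFAP2A, a factor of surface ectoderm and neural crest, was at 5.89 and 5.88 in the shRNA5 lines and 7.80, 7.48 and 6.79 in the shRNA1 lines (-1.47 ± 0.29, SE, adjusted p = 0.115), while its other kept probe differed by only -0.13. Its relative TFAP2B and the eye and limb factor DACH1 were below background in both shRNA5 lines and at least 1.28-fold and 1.78-fold lower. DLX5, a homeobox factor of branchial arches and bone, was at 5.27 and 6.26 in the shRNA5 lines and 7.30, 8.23 and 6.39 in the shRNA1 lines, where line 1_6 came close to line 5_28.

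The remaining genes of this rank serve other roles. RGS5, a regulator of G protein signalling, was at 6.38 and 6.53 in the shRNA5 lines and 8.17, 7.37 and 8.77 in the shRNA1 lines (-1.65 ± 0.36, SE). CPE, which trims peptide hormones, differed by -1.58 ± 0.31 (SE), and the neuropeptide NTS by -1.58 ± 0.42 (SE). NOP58, a core protein of small nucleolar ribonucleoproteins, was at 7.48 and 7.50 in the shRNA5 lines and 8.70, 9.05 and 8.98 in the shRNA1 lines (-1.42 ± 0.19, SE, adjusted p = 0.0853).

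Genes of epithelial adhesion, which join cells through adherens junctions, tight junctions and desmosomes, had the median difference farthest from 0 among 28 lists. Of 27 listed genes 19 were measured, and 17 were higher in the shRNA5 lines and 2 lower, with a median difference of 0.54. At an unadjusted p under 0.05 there were 8 higher and 0 lower, against 6.23% and 7.3% of all genes, and 0 passed the adjusted threshold. Higher at least 2-fold without overlap were 5, CDH1, CLDN7, RAB25, SPINT2 and DSP, against 0.87% of all genes. Without line 1_6 the counts were 18 higher and 1 lower with a median of 0.41. At an unadjusted p under 0.05 there were then 8 higher, against 852 of all 10117 genes. With the authors' normalized values the median was 0.33.

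CDH1, or E-cadherin, the adherens junction protein of epithelia, had levels of 9.31 and 8.75 in the shRNA5 lines and 7.29, 7.88 and 7.26 in the shRNA1 lines (1.56 ± 0.26, SE, adjusted p = 0.105). CLDN7, a tight junction claudin, was at 6.61 and 7.13 in the shRNA5 lines and below background in all shRNA1 lines, at least 2.24-fold higher. RAB25, an epithelial GTPase of membrane recycling, was at 7.46 and 7.35 in the shRNA5 lines and 5.95, 6.31 and 6.16 in the shRNA1 lines (1.26 ± 0.19, SE, adjusted p = 0.101). Each of these has all shRNA5 lines above all shRNA1 lines, with line 1_3 the highest of its set. DSP, the desmosome protein desmoplakin, was at 8.77 and 8.87 in the shRNA5 lines and 7.61, 7.95 and 7.71 in the shRNA1 lines (1.06 ± 0.19, SE, adjusted p = 0.109), and SPINT2, an inhibitor of epithelial serine proteases, differed by 1.14 ± 0.23 (SE, adjusted p = 0.116). SPINT2 and the members that follow were chosen after their values were seen. In the epithelial list EPCAM, the surface antigen of epithelia and pluripotent cells, differed by 0.26, and the keratins KRT8 and KRT18 and the junction scaffold TJP1 by -0.04, 0.10 and 0.02.

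An E-box of the letters CACCTG, or CAGGTG on the other strand, is a motif known from the promoters of epithelial genes. Of the 11 measured epithelial genes with a RefSeq promoter window 6 held it on either strand (54.5%), against 5625 of all 27305 windows of the same length (20.6%) and 1473 of the 8297 kept genes (17.8%). The 6 were RAB25, DSP, ELF3, LAD1, CLDN6 and TJP1, with differences of 1.26, 1.06, 0.68, 0.32, 0.11 and 0.02, so genes with the motif include some that hardly differed. The windows of RAB25 and DSP are printed with the E-box in capitals.
RAB25 (chr1:156060910-156061209, plus strand): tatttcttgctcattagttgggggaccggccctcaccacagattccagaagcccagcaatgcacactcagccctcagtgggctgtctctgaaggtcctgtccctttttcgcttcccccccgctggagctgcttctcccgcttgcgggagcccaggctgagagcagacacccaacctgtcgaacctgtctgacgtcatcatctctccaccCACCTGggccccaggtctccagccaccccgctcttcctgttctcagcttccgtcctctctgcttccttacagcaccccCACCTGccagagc
DSP (chr6:7541421-7541720, plus strand): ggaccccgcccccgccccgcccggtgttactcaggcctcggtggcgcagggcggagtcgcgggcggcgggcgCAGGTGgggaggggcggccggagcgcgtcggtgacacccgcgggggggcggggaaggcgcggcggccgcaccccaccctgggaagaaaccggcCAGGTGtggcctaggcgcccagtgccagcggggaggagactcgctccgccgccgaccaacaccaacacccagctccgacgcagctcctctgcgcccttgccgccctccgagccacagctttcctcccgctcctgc
Each holds the motif in 2 places, while the window of CLDN7 has none. A match describes letters and not binding.

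Genes of matrix and mesenchymal adhesion were mostly on the other side. Of 43 listed 38 were measured, 13 higher and 25 lower, with a median of -0.18, and at an unadjusted p under 0.05 there were 1 higher and 8 lower, against 6.23% and 7.3% of all genes. Lower at least 2-fold by the fitted difference and without overlap were 5, ACTA2, LUM, CDH11, ANXA1 and COL3A1, against 0.682% of all genes. LUM and COL3A1 were below background in both shRNA5 lines, so they are only known to be at least 1.21-fold and 1.00-fold lower. ACTA2, smooth muscle actin, was at 7.71 and 7.66 in the shRNA5 lines and 8.82, 9.14 and 8.40 in the shRNA1 lines (-1.10 ± 0.24, SE, adjusted p = 0.128). CDH11, a mesenchymal cadherin, was at 7.21 and 7.15 in the shRNA5 lines and 8.64, 8.14 and 7.91 in the shRNA1 lines (-1.05 ± 0.24, SE, adjusted p = 0.142). For both genes the sets do not overlap, and the neural cadherin CDH2 differed by -0.72 ± 0.19 (SE, adjusted p = 0.176), also without overlap. COL5A2, a fibrillar collagen chain, differed by -0.86 ± 0.20 (SE).

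Part of this list moved with line 1_6 alone. The list's median deviation from the mean of the 5 lines was 0.26 in line 1_6 and between -0.10 and 0.02 in the other 4. ANXA1, a lipid-binding protein, was at 9.21 and 9.20 in the shRNA5 lines and 9.91, 9.85 and 11.12 in the shRNA1 lines. COL3A1, a fibrillar collagen chain, was below background in both shRNA5 lines and in line 1_3, and its highest value, 6.61, was that of line 1_6. Without line 1_6 the list stood at 16 higher and 22 lower with a median of -0.10. Lower at least 2-fold without overlap were then 2 members, against 54 of all 10117 genes. VIM, the intermediate filament of mesenchymal and undifferentiated cells, differed by -0.17, and LGALS1, a galectin, by 0.87 ± 0.21 (SE, adjusted p = 0.147) against the direction of the list; ANXA1, CDH2, VIM and LGALS1 were chosen after their values were seen.

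**Figure D3:**
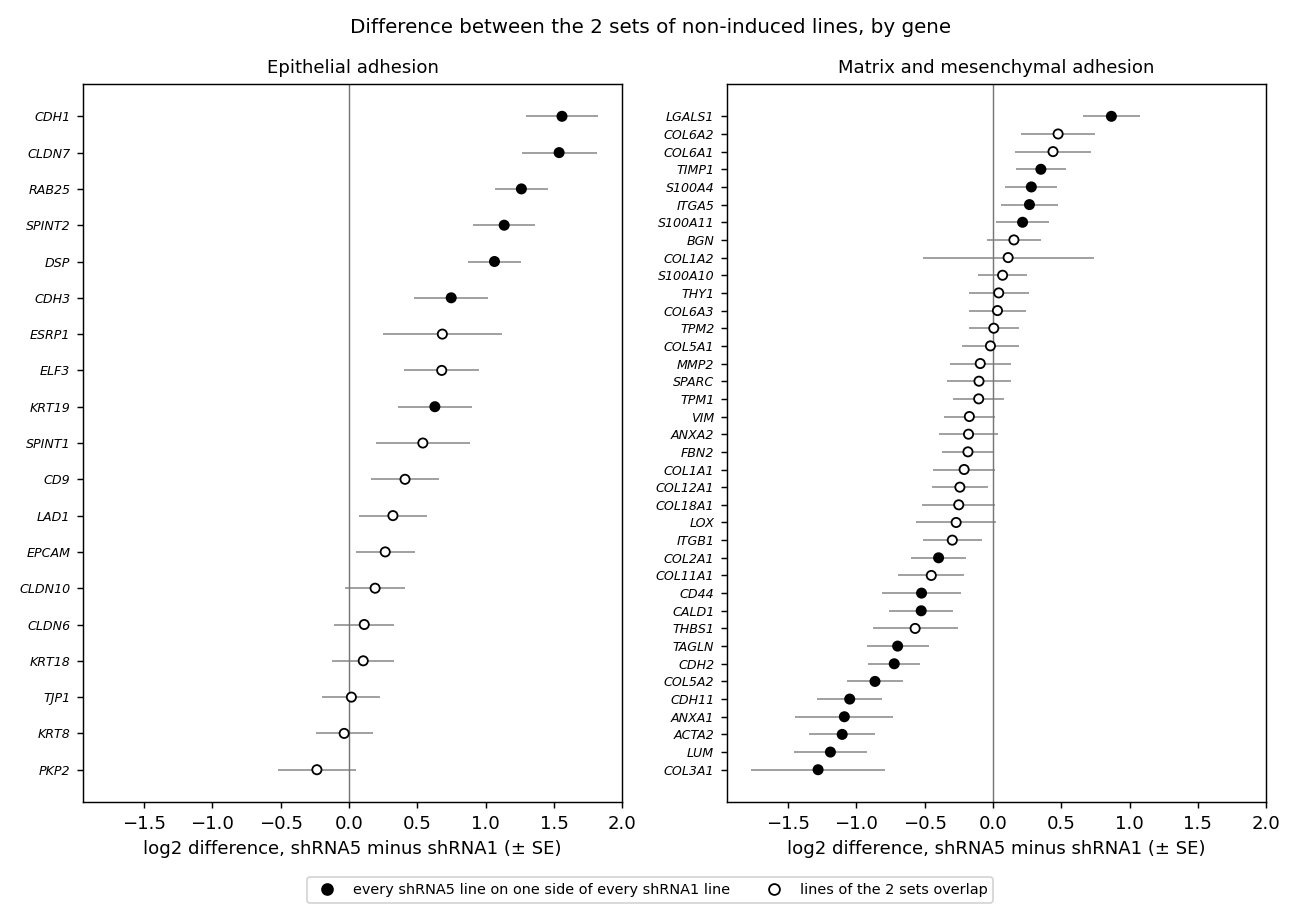
Log2 difference (shRNA5 minus shRNA1, ± SE of limma) of each measured gene of epithelial adhesion (left, 19 genes) and of matrix and mesenchymal adhesion (right, 38 genes), filled where the 5 lines of the 2 sets do not overlap. Epithelial genes lie at or above 0 except KRT8 and PKP2, while 25 of the 38 matrix genes lie below 0.

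Interferon-stimulated and antigen presentation genes were mostly higher in the shRNA5 lines. Of 44 listed 25 were measured, 20 higher and 5 lower, with a median of 0.31, and 5 higher and 1 lower at an unadjusted p under 0.05, against 6.23% and 7.3% of all genes. TAP1, which carries peptides to class I molecules, was at 6.62 and 7.03 in the shRNA5 lines and 5.71, 5.78 and 5.30 in the shRNA1 lines (1.23 ± 0.23, SE, adjusted p = 0.109). PSMB8, a subunit of the immunoproteasome, was below background in all shRNA1 lines and at least 1.40-fold higher, and the class I chain HLA-B was 0.70 ± 0.19 (SE) higher. MX2, an antiviral GTPase, was on the other side, at 7.95 and 8.41 in the shRNA5 lines and 8.94, 9.10 and 9.26 in the shRNA1 lines (-0.92 ± 0.21, SE, adjusted p = 0.146). Without line 1_6 the list kept a median of 0.31, with 19 of 25 higher.

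Glycolysis and hypoxia genes, which cells raise when oxygen is short, showed 24 members higher and 12 lower of 36 measured, a median of 0.17, and 9 higher and 0 lower at an unadjusted p under 0.05, against 6.23% and 7.3% of all genes. DDIT4, an inhibitor of mTOR under hypoxia and stress, was at 10.67 and 10.02 in the shRNA5 lines and 8.89, 9.28 and 8.58 in the shRNA1 lines (1.43 ± 0.27, SE, adjusted p = 0.115). ANKRD37, a target of the hypoxia factor HIF1A, was at 7.22 and 6.78 in the shRNA5 lines and 5.84, 5.95 and 5.74 in the shRNA1 lines (1.16 ± 0.21, SE, adjusted p = 0.105). The mitophagy receptor BNIP3 had levels of 11.30 and 11.23 in the shRNA5 lines and 10.44, 10.43 and 10.28 in the shRNA1 lines (0.88 ± 0.18, SE, adjusted p = 0.119). For these 3 the sets do not overlap, and P4HA2, a collagen prolyl hydroxylase, was 0.75 ± 0.23 (SE) higher, with 0.75 on its other kept probe. Without line 1_6 there were 27 higher and 9 lower, with a median of 0.21.

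Heat shock and chaperone genes showed 24 members lower and 5 higher, DNAJA4 among the 5, of 29 measured, with a median of -0.19 and 1 higher and 5 lower at an unadjusted p under 0.05, where 6.23% and 7.3% of all genes stood. HSPH1, an exchange factor for HSP70, was at 10.72 and 10.76 in the shRNA5 lines and 11.52, 11.44 and 11.64 in the shRNA1 lines (-0.79 ± 0.18, SE, adjusted p = 0.142). CCT5, a subunit of the chaperonin that folds actin and tubulin, differed by -0.66 ± 0.18 (SE), and HSP90AA1 by -0.47 ± 0.19 (SE). DNAJA4 was thus the only member past the threshold, in the opposite direction to most of its list. Cytoskeleton genes were lower in 23 of 29, with a median of -0.12, among them the regulatory myosin chain MYL9 at -0.82 ± 0.28 (SE) and the lamin LMNB1 at -0.74 ± 0.18 (SE).

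Lists of the cell cycle and of p53 targets had more members with a negative than with a positive difference. G1/S and replication genes were lower in 25 of 33, with a median of -0.17 and 2 lower at an unadjusted p under 0.05, the replication factor MCM10 (-0.59 ± 0.20, SE) and the kinase CDK6 (-0.49 ± 0.20, SE), a share no higher than the 7.3% of all genes. Without line 1_6 this count was 7, where 895 of all 10117 genes were lower at that p. When all kept probes of a gene were averaged the median was -0.09. Mitosis genes were lower in 22 of 34, with a median of -0.09, and DLGAP5, a spindle protein, was at 8.67 and 9.18 in the shRNA5 lines and 9.64, 9.34 and 10.20 in the shRNA1 lines. Targets of p53 were lower in 11 of 16, with a median of -0.18 and 5 lower at an unadjusted p under 0.05, against 7.3% of all genes. CCNG1, a cyclin induced by p53, was at 8.62 and 8.74 in the shRNA5 lines and 9.23, 9.28 and 9.41 in the shRNA1 lines (-0.63 ± 0.18, SE, adjusted p = 0.191). None of these members passed over all probes.

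Genes of the ATF4 stress response had 27 of 38 measured members higher, with a median of 0.16, and 4 higher and 2 lower at an unadjusted p under 0.05, where all genes had 6.23% and 7.3%. Without line 1_6 the split was 23 and 15, with a median of 0.08. The transcription factor DDIT3 was 0.63 ± 0.20 (SE) and ASS1 of arginine synthesis 0.63 ± 0.19 (SE) higher, while the amino acid transporter SLC38A2 was at 8.12 and 8.01 in the shRNA5 lines and 8.91, 8.89 and 9.21 in the shRNA1 lines (-0.93 ± 0.19, SE, adjusted p = 0.119). The other kept ASS1 probes differed by 0.88 and -0.02. Line 1_3 had the highest median deviation on this list, at 0.18, against 0.10 and 0.07 in the shRNA5 lines and -0.15 and -0.09 in lines 1_1 and 1_6, so its lines do not divide by set.

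Imprinted genes, of which only the maternal or the paternal copy is used, were divided, 10 higher and 18 lower of 28 measured, with 5 in each direction at an unadjusted p under 0.05, against 6.23% higher and 7.3% lower among all genes. H19, a maternally expressed non-coding RNA, was at 8.21 and 8.35 in the shRNA5 lines and 9.05, 8.96 and 8.91 in the shRNA1 lines (-0.69 ± 0.18, SE, adjusted p = 0.176). MEST, a paternally expressed hydrolase gene, was below background in both shRNA5 lines and at least 1.43-fold lower. SLC67A1, a transporter gene of the same imprinted region of chromosome 11 as H19, was 0.89 ± 0.27 (SE) higher, with its lowest value, 6.60, in line 1_1. With MEG3, these are the 4 members with the smallest p.

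Of 24 neural genes 15 were measured, 4 higher and 11 lower, with a median of -0.07 and 0 higher and 3 lower at an unadjusted p under 0.05, where all genes had 6.23% and 7.3%. NEFM, a neurofilament, was at 8.01 and 7.75 in the shRNA5 lines and 8.88, 8.27 and 8.95 in the shRNA1 lines (-0.82 ± 0.25, SE, adjusted p = 0.206), and the microtubule protein MAP2 differed by -0.59 ± 0.24 (SE). POU3F2, a factor of neurons, was below background in both shRNA5 lines and at least 1.03-fold lower. Without line 1_6 neural genes were lower in 12 of 15, with a median of -0.20. Of 24 retinoic acid and HOX genes 10 were measured, 5 in each direction, and CYP26B1, which degrades retinoic acid, was 0.78 ± 0.21 (SE) higher without overlap. Endoderm genes were 5 higher and 4 lower of 9, mesoderm genes 2 and 4 of 6, and trophoblast genes 5 and 3 of 8. TFAP2A was the single trophoblast member lower at least 2-fold without overlap, against 0.682% of all genes.

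Signalling genes showed single members apart. ID2, an inhibitor of differentiation downstream of BMP, was at 10.68 and 10.87 in the shRNA5 lines and 9.75, 9.81 and 9.90 in the shRNA1 lines (0.96 ± 0.18, SE, adjusted p = 0.115), while its other kept probe differed by 0.08. ID1 was 0.57 ± 0.25 (SE) higher, and CCN2, a target of TGF-beta and YAP, was at 10.34 and 9.73 in the shRNA5 lines and 10.71, 10.47 and 11.35 in the shRNA1 lines. The BMP and TGF-beta list as a whole was 8 higher and 8 lower. WNT targets and regulators were lower in 13 of 18, with a median of -0.15. LEF1 was the 1 member at an unadjusted p under 0.05 (-0.49 ± 0.19, SE), where 6.23% of all genes were higher and 7.3% lower. Of the LIN28 and let-7 genes 15 of 19 were lower, with a median of -0.13 and 1 at an unadjusted p under 0.05, against the same shares of all genes. That member was IGF2BP1, which was below background in both shRNA5 lines and at least 1.17-fold lower. Without line 1_6 there were 12 of 19 lower, with a median of -0.09 and 2 higher and 1 lower at that p. Of all 10117 genes 852 were then higher and 895 lower at it.

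The housekeeping lists lay at the median of all genes. Ribosomal proteins were 39 higher and 29 lower of 68, with a median of 0.02, and RPL13A, at 12.02 and 11.68 in the shRNA5 lines and 10.95, 11.10 and 10.92 in the shRNA1 lines, was the 1 member at an unadjusted p under 0.05 (0.86 ± 0.20, SE, adjusted p = 0.139). At that level 6.23% of all genes were higher and 7.3% lower. Genes of the respiratory chain were 18 higher and 15 lower of 33 with 0 at that level, and genes of cholesterol and fatty acid synthesis 12 and 9 of 21 with 0. Translation factors were 18 and 19 of 37, with 0 higher and 3 lower at that level. Metallothioneins and antioxidant genes were 10 and 14 of 24, with 1 higher and 1 lower. Among the last, GSTT1, a glutathione transferase, was at 9.48 and 9.56 in the shRNA5 lines and 8.79, 8.84 and 8.67 in the shRNA1 lines (0.76 ± 0.18, SE, adjusted p = 0.147). Of 55 germline and cancer-testis genes only 7 were measured, and TEX19 was 1.09 ± 0.26 (SE, adjusted p = 0.147) higher. Fibroblast markers were 4 higher and 5 lower of 9, with 3 lower at an unadjusted p under 0.05, against 7.3% of all genes. These 3 were MFAP5, LUM and COL3A1, and the last 2 were already counted among the matrix genes. LUM and COL3A1 passed the detection filter only through shRNA1 arrays and are only known to be at least 1.21-fold and 1.00-fold lower. Of the 9 fibroblast markers 6 are shared with other lists, so this count is not separate from theirs. Of 14 blood and endothelial genes 3 were measured, where VWF was at 8.90 and 9.84 in the shRNA5 lines and 8.40, 8.82 and 7.65 in the shRNA1 lines.

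List medians near 0 depend on how arrays are scaled. With scaling to a common median in place of quantiles, a setting chosen for the lists after the data were seen, the median of all genes stood at -0.14, and the medians of 7 of the 28 lists turned sign, those of pluripotency, endoderm, trophoblast, BMP and TGF-beta, ribosomal, respiratory and cholesterol genes. Epithelial genes were then 14 higher and 5 lower with a median of 0.47, and interferon genes 20 and 5 with a median of 0.22. Matrix genes were 7 higher and 31 lower with a median of -0.32, and chaperones 3 and 26 with a median of -0.34. Glycolysis and hypoxia genes were 18 and 18 with a median of 0.01, and ATF4 genes 20 and 18 with a median of 0.04, both above the median of all genes.

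Some genes varied widely among the shRNA1 lines. GARIN5A, a gene known from testis, was at 7.33 and 7.23 in the shRNA5 lines and at 4.69, 7.28 and 4.61 in the shRNA1 lines. Line 1_3 was thus level with the shRNA5 lines, while lines 1_1 and 1_6 were below background. NPFFR2, a neuropeptide receptor, had the same shape, at 8.77 and 8.97 in the shRNA5 lines and 5.48, 8.63 and 5.36 in the shRNA1 lines, as did MAP1LC3A, which lipidates onto autophagosomes, at 10.18 and 9.34 in the shRNA5 lines and 6.21, 8.86 and 6.02 in the shRNA1 lines. On average MAP1LC3A differed by 2.73 ± 0.74 (SE) and NPFFR2 by 2.39 ± 0.83 (SE), without overlap. The reverse held for MNS1, a protein of meiosis and cilia, at 6.26 and 6.42 in the shRNA5 lines and 6.24, 4.70 and 6.86 in the shRNA1 lines. SIX6, an eye-field homeobox factor, was highest in line 1_3 at 8.33, against 6.33 and 6.11 in the shRNA5 lines and 6.41 and 5.75 in lines 1_1 and 1_6. The collagen gene COL1A2 was at 10.16 in line 1_6 and 7.48 in line 1_3, with 8.60 and 9.23 in the shRNA5 lines. MLXIPL, a glucose-sensing transcription factor, and HRK, a pro-apoptotic BCL2 relative, were lowest in line 1_6, at 5.15 and 4.85.

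The 2 shRNA5 lines differed most from each other in NLRP2, an oocyte and early embryo relative of NLRP7. It was at 6.48 in line 5_23 and 10.05 in line 5_28, against 7.93, 9.86 and 8.30 in the shRNA1 lines. BTBD17 was at 6.98 and 8.74 in the shRNA5 lines and 9.84, 9.89 and 8.44 in the shRNA1 lines, and CYP26A1, which degrades retinoic acid, at 6.16 and 7.68 in the shRNA5 lines and 8.53, 7.08 and 8.14 in the shRNA1 lines. For each of these line 5_23 was the lowest of all 5 lines. PATJ, a scaffold of cell polarity, was highest there, at 7.03, against 5.00 in line 5_28 and 4.83, 5.97 and 4.69 in the shRNA1 lines. COQ8B, HAND1, CHMP6 and PTPRR completed the 8 genes with the largest gap; each was above background in 1 of the 2 shRNA5 lines. Over all genes the median gap between the shRNA5 lines was 0.17 and the median range over the 3 shRNA1 lines 0.45, a comparison of 2 lines with 3. It was made after the removal of the sample outside its cluster, by the replicate numbers an shRNA5 one.

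The same genes can be read in the induced arrays, where the labels give the same replicate numbers. NLRP2 was lowest in line 5_23 and, among induced arrays, at 6.09 in array 5_34, which shares its replicate number 4. The other induced shRNA5 arrays were at 10.15 and 10.19 and the induced shRNA1 arrays at 9.32, 9.90 and 9.31. GARIN5A was at 7.14 in induced array 1_12, which shares replicate number 2 with line 1_3, and at 5.17 and 5.28 in the other induced shRNA1 arrays. NPFFR2 did not keep its low values, with 8.02 and 8.14 in induced arrays 1_10 and 1_15 against 5.48 and 5.36 in the same-numbered lines 1_1 and 1_6. The plot of genes high in some lines shows all 11 arrays.

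**Figure D4:**
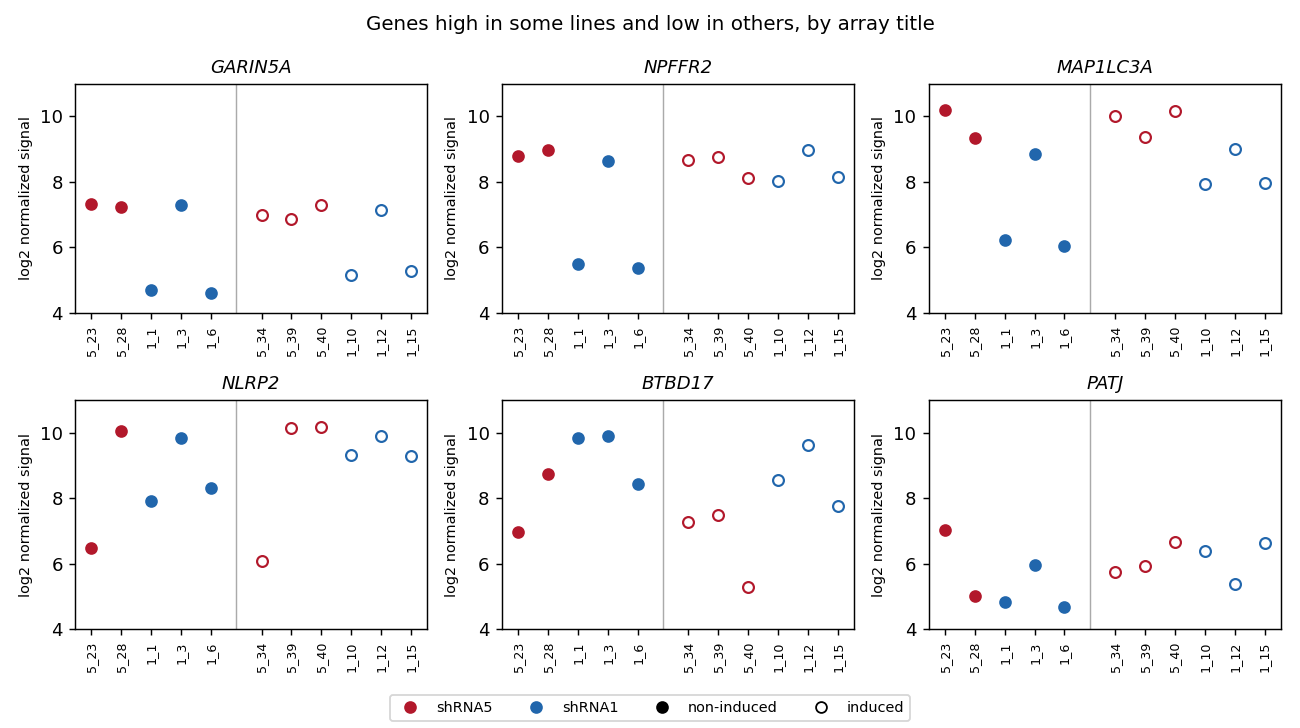
Log2 normalized signal of 6 genes on each non-induced (filled) and induced (open) array, shRNA5 in red and shRNA1 in blue, with the array titles on the horizontal axis. GARIN5A is at 7.28 in line 1_3 and at 4.69 and 4.61 in lines 1_1 and 1_6, and NLRP2 at 6.48 in line 5_23 and 10.05 in line 5_28.

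By chromosome the median difference ran from 0.09 on chromosome 22, 0.07 on chromosome 19 and 0.06 on chromosome 17 to -0.11 on chromosomes 4 and 18, -0.12 on chromosome 5 and -0.15 on chromosome 13. In line 1_6 alone the median deviation from the 5 lines was -0.17 on chromosome 22 and 0.13 on chromosome 13. Without it the medians were 0.02 on chromosome 22, 0.02 on 19 and 0.02 on 17, and -0.14 on chromosome 13, -0.09 on 5, -0.09 on 18 and -0.09 on 4. The 2075 genes with the lowest promoter GC content, of 8297 with a window, had a median difference of -0.03. They held 55 members at least 2-fold apart without overlap, where all 10117 genes held 157. The 2074 with the highest had a median difference of 0.00073 and 14 such members. Without line 1_6 these medians were -0.024 and -0.016, so the gap between them was narrower. Copy number was not measured.

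The induced arrays, of the same clones by the design text, served to ask whether these differences outlast induction. Of the 4 probes past the threshold 3 had the same direction there. DNAJA4 was at 7.09, 7.54 and 7.73 in the induced shRNA5 arrays and 6.11, 5.29 and 5.91 in the induced shRNA1 arrays (1.68 ± 0.26, SE, adjusted p = 0.0455). ILMN_1831106 also kept its difference (-1.39 ± 0.19, SE, adjusted p = 0.0229), and NLRP7 was 1.28 ± 0.23 (SE, adjusted p = 0.0800) higher. MB did not, with 6.91, 6.62 and 6.31 in the induced shRNA5 arrays and 7.11, 6.51 and 7.28 in the induced shRNA1 arrays (-0.35 ± 0.24, SE); the level of its shRNA1 arrays was higher with doxycycline than without it.

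Of the 157 genes at least 2-fold apart without overlap before induction, 91 (58.0%) had the same direction after it, against 49.1% of all genes, and the median difference in that direction was 0.03. Without overlap in the same direction were 16 (10.2%), against 9.16% of all genes. TFAP2A was past the threshold in the induced arrays, at 5.94, 6.01 and 5.07 in the induced shRNA5 arrays and 8.11, 9.10 and 7.74 in the induced shRNA1 arrays (-2.64 ± 0.35, SE, adjusted p = 0.0229), and DLX5, below background in all induced shRNA5 arrays, was at least 2.97-fold lower (adjusted p = 0.0611). In the induced arrays MAP1LC3A differed by 1.54 (adjusted p = 0.322) and MX2 by -0.92 (adjusted p = 0.177). NR2F1 overlapped there, at 6.17, 5.04 and 4.80 in the induced shRNA5 arrays and 6.38, 8.38 and 5.16 in the induced shRNA1 arrays, where array 1_12 alone was high. The induced difference was -0.13 for CDH1 and CLDN7, 0.03 for RAB25 and -0.37 for DSP, values far from those before induction. TXNIP and MEG3 were at -1.13 and -1.92 after induction, opposite to their differences before it. In the induced arrays alone 2 probes were higher and 4 lower past the threshold.

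**Figure D5:**
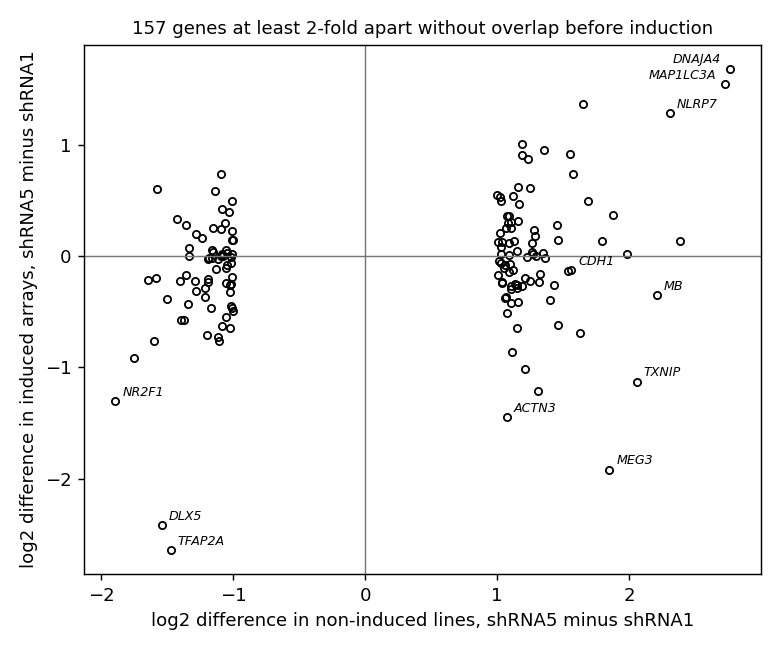
Log2 difference shRNA5 minus shRNA1 in induced arrays (vertical) against non-induced lines (horizontal) for the 157 genes at least 2-fold apart without overlap before induction, 1 point a gene. DNAJA4, MAP1LC3A and NLRP7 lie at the upper right and TFAP2A and DLX5 at the lower left, while MEG3 lies at 1.85 on the horizontal and -1.92 on the vertical axis.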

How the data were processed

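Per the file headers, the deposited table of probe intensity values (Illumina bead arrays, a signal and a detection p-value per probe and array) was not normalized, and the p-values are the authors' scanner output. The authors' second deposited matrix holds intensity values on a linear scale with the same distribution on all 11 arrays, as after quantile normalization, and served as an alternative in log2; the submitters' processing notes name limma without its role. All 11 arrays were background-corrected, quantile-normalized and set to log2 with neqc (limma 3.58.1, R 4.3.3; offset 16). The sets were compared with lmFit and eBayes on the 5 non-induced arrays, 14840 probes, with Benjamini-Hochberg adjustment; induced arrays and interactions were fitted over all 11. A gene is its brightest kept probe with 1 symbol. Platform symbols can be old: 28098 probes had 1 symbol, 13 several and 20692 none, and 28059 were matched to RefSeq.

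Named are L1TD1 and 5 core factors, the 25 brightest genes, probes past the threshold, up to 10 of the largest differences per direction without overlap, the 4 lowest-p members per list, and the 8 genes with the widest spread within each set. Any other name was picked with its values in view, and the text says so. Members and lists were chosen with earlier results of these data known. Genes on the Y chromosome and XIST were not named. Slide and scan are not given in the sources used here. The number of unassigned columns of per-sample values was 0. The fit was tested on simulated data. Promoter windows are from RefSeq (GRCh38.p14). Alternatives were the background correction, normalization, detection filter, arrays in the fit, array weights, variance prior, replicate block (statmod 1.5.0) and leaving out each array.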

Additional observations from a re-analysis of the deposited data

Results flagged for a closer look

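For 3 genes the difference between the shRNA5 and the shRNA1 arrays differed between non-induced and induced cells by a test of that difference, an interaction term in limma over all 11 arrays. Of the 14840 probes tested, 1831 had an unadjusted p under 0.05 for it. All 3 genes passed the detection filter only through the non-induced set where they are high. The interaction was not fitted without that filter. ACTN3, a fast-muscle actinin, was at 6.09 and 6.26 in the non-induced shRNA5 lines and 5.23, 5.12 and 4.96 in the non-induced shRNA1 lines, and at 5.69, 5.39 and 5.57 in the induced shRNA5 arrays and 7.37, 6.83 and 6.78 in the induced shRNA1 arrays. It was below background on all 3 non-induced shRNA1 arrays and on 2 of the 3 induced shRNA5 arrays, so before induction it is only known to be at least 1.38-fold higher in the shRNA5 lines. The fitted interaction, induced minus non-induced, was -2.522 (adjusted p = 0.00963). For MB, whose values stand in the report, it was -2.562 (adjusted p = 0.0393), with all 3 non-induced shRNA1 arrays below background. RAP1GDS1, an exchange factor for small GTPases, was at 4.85 and 4.99 in the non-induced shRNA5 lines and 6.03, 5.76 and 6.30 in the non-induced shRNA1 lines, and at 5.99, 6.09 and 6.20 in the induced shRNA5 arrays and 4.71, 5.04 and 5.25 in the induced shRNA1 arrays. It was below background on both non-induced shRNA5 and all 3 induced shRNA1 arrays, so it was at least 1.24-fold lower in the shRNA5 lines before induction and at least 1.30-fold higher after it. The fitted interaction was 2.201 (adjusted p = 0.0244). Fitted values that rest on groups below background depend on the array's lower end and are no bounds. For all 3 the sign of the difference was opposite before and after induction, and the groups do not overlap for ACTN3 and RAP1GDS1. With the authors' normalized values the interaction passed the threshold for 0 probes.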

How the results depend on the processing

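Of 131 genes or probes with a named difference, 129 kept their direction under every setting in which they were tested, and the exceptions were CD14 and PIWIL2. On probes detected on all 5 arrays only 100 of the 131 were tested. Most were named for their differences or p-values in these same data, so a kept direction is no separate evidence. CD14 stood at -0.02, at 0.0080 with a random replicate block, and between -0.35 and 0.24 when single arrays were left out; PIWIL2 stood at 0.12, and at -0.081 with scaling to a common median. L1TD1 differed by 0.05 to 0.31, and the excess distance between the sets was 0.0020 to 0.0127. Against 3 probes higher and 1 lower in the main setting, limma called 3 and 0 with the authors' values or without background correction, and 4 and 3 with scaling to a common median. It called 0 and 0 without the detection filter (4305 at an unadjusted p under 0.05) and on probes detected on all 5 arrays (1711), where the 4 called probes were not tested. It called 6 and 2 with all 11 arrays in the fit, 568 and 565 with array weights, and 4 and 2 with a trended and robust prior. With the replicate number as a random block over all 11 arrays it called 6 higher and 2 lower, and a fixed block was not possible because each number lies in 1 set. Deviations from the group means correlated at 0.0511 to 0.260 between same-numbered non-induced and induced arrays, above 0.1 in 2 of 5 pairs, and 1 of 5 lines correlated best with its own number, and the labels do not state that a number marks a clone. Left-out arrays gave 0 to 15 higher and 0 to 6 lower, the highest without line 1_3. Probes at least 2-fold apart without overlap were 118 higher and 95 lower, together 33 with the authors' values, 33 without background correction, 105 on probes detected on all 5 arrays, and 190 to 382 when single arrays were left out; scaling to a common median made the split 96 and 137. The interaction passed for 3 probes, for 0 with the authors' values, for 3 with the block, and for 0 to 4 when single arrays were left out. The cause of these changes was not tested. Having 2 against 3 arrays limits every p.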
